A study of Mus musculus with 45 samples.

Results

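This report describes 9 transcription factors of macrophage lineage and polarisation, Spi1, Cebpa, Cebpb, Cebpd, Maf, Klf4, Egr2, Myc and Batf2, in bone marrow-derived macrophages of mice with 3 alleles of Famin. The 9 genes were chosen by symbol as known regulators of these states, with earlier results of these data known. Of these, 8 were found among 29307 genes with counts. Cebpb was not analysed here. Cebpd had counts but did not pass the filter on low counts, so 7 of the 9 entered the tests across 12905 genes.

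FAMIN, encoded by Lacc1, is an enzyme of purine metabolism in macrophages. The C57BL/6N mice carried Famin p.254I, Famin p.254V or Famin p.284R, were 6 to 10 weeks old, and numbered 5 of each genotype. The alleles are carried by the whole animal and not by macrophages alone, p.254V is the form that C57BL/6 mice express, and the labels do not say which mice were littermates. Bone marrow cells of each mouse were cultured for 6 days, with M-CSF at 100 ng/mL, and then polarised for 24 h. M0 macrophages received no stimulus, M1 macrophages received IFN-γ at 50 ng/mL with LPS at 20 ng/mL, and M2 macrophages received IL-4 at 20 ng/mL. The comparisons ask how each factor differed between M0, M1 and M2, and whether the Famin allele moved it. Libraries of stranded mRNA, 1 per mouse and polarisation, held 17239009 to 43740283 counted reads with a median of 27553642.

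Macrophage identity is set by lineage factors that open and hold enhancers, chief among them PU.1 (Spi1) with the C/EBP proteins, and is then tuned by factors that external signals induce or repress. IFN-γ and LPS act largely through IRF and NF-κB proteins and drive the inflammatory M1 programme, whereas IL-4 acts through STAT6 and drives the alternative M2 programme. KLF4, EGR2 and MYC are known as factors induced by IL-4, BATF2 as a partner of IRF1 induced by interferon, and c-MAF as a factor of resting and tissue macrophages that restrains inflammatory genes.

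The cultures carried most of the markers their labels name. Of 10 listed M1 markers, the 8 that could be tested were all higher in M1 than in M0. Il6 and Il12b did not pass the filter on low counts and reached at most 0.298 and 0.201 CPM in M1. All 10 M2 markers were higher in M2 than in M0, as described with the gene lists further on. The 10 macrophage markers summed to 25160 to 41580 CPM in M0, 19790 to 24940 CPM in M1 and 11400 to 16440 CPM in M2. CPM are read counts scaled to a common library total, here after TMM scaling, which corrects for composition. Bulk RNA cannot tell fewer cells of a type apart from less RNA per cell.

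Several libraries stood apart. The M1 library of Famin p.254I mouse 5 held 40.8 CPM of Arg1 and 49.1 CPM of Retnla, genes of the M2 programme, where the other 14 M1 libraries held at most 0.912 and 0.249 CPM. The M0 library of Famin p.254I mouse 4 held 169.9 CPM of Saa3, an acute-phase gene induced by LPS, where the other 14 M0 libraries held 2.29 to 18.5 CPM. The M2 library of the same mouse held 134.1 CPM of Saa3 against 1.94 to 6.6 CPM in the other 14. In the Famin p.284R group, Lacc1 itself was low in mice 1 to 3. It lay between 218.2 and 395.9 CPM in their M1 libraries and between 485.8 and 597.4 CPM in the M1 libraries of the other 12 mice, and the ranges of these 3 mice and the other 12 were also apart in M0 and M2. Counts of members are therefore also given without the first 3 libraries and without the 9 libraries of Famin p.284R mice 1 to 3, both chosen after seeing the data.

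Polarisation moved most of these factors, as it moved most genes. Both comparisons with M0 share the same 15 M0 libraries. In M1 against M0, all 7 tested factors were called (edgeR quasi-likelihood test, Benjamini-Hochberg adjusted p under 0.05 over 12905 genes), against a background of 77.3% of all genes tested. Spi1, Klf4 and Batf2 were higher in M1 (higher genes made up 37.0% of all genes tested), and Cebpa, Maf, Egr2 and Myc were lower (40.3%). In M2 against M0, 5 of 7 were called against a background of 76.4%, with Spi1, Klf4, Egr2 and Myc higher (36.8%) and Maf lower (39.6%). Cebpa and Batf2 did not pass the test in M2. In M1 against M2, which shares its libraries with the other comparisons, all 7 were called against a background of 79.1%. With most genes called, the sizes of the differences and the separation of the libraries say more than the calls. The ranges of the 15 M1 and 15 M0 libraries did not overlap for 6 of 7 factors, where 28.6% of all genes tested had no overlap. The ranges of the M2 and M0 libraries did not overlap for 4 of 7, where 23.4% of all genes had none, and those of M1 and M2 for 6 of 7, where 35.7% had none. The factors were chosen with earlier results of these data known, so setting these counts beside the background is not an independent test. Counts of 7, 5 and 7 called factors were unchanged without the 3 libraries that stood apart. Without the 9 libraries of Famin p.284R mice 1 to 3 the M2 count was 6, because Cebpa was then called with a log2 fold change of 0.21 (adjusted p = 0.0281).

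**Figure D1:**
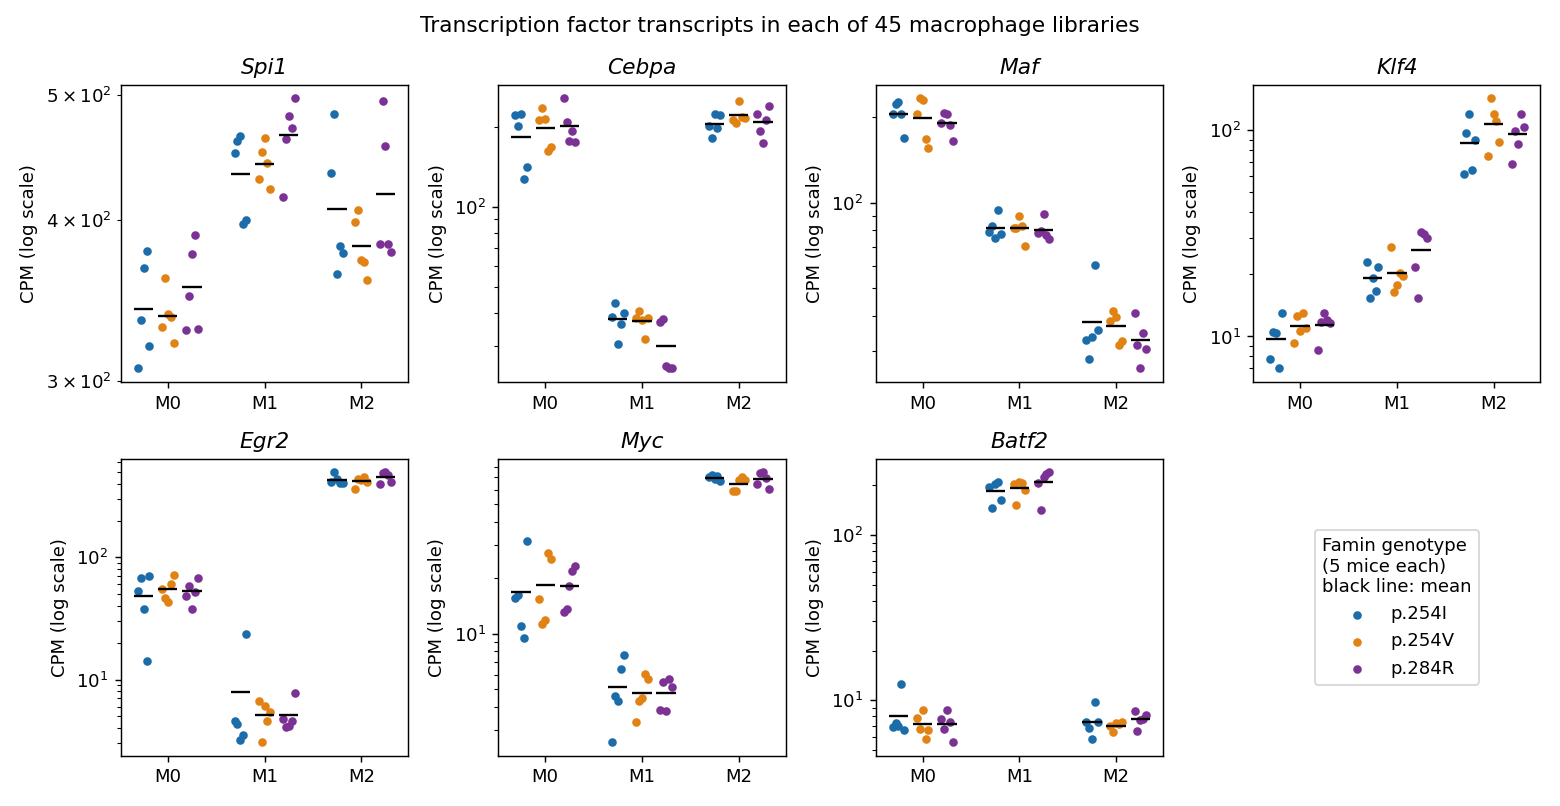
Transcript level of the 7 tested factors in each of 45 libraries, in CPM on a log axis, for M0, M1 and M2 (x axis) and for the 3 Famin genotypes (colours, 5 mice each), with black lines at the group means. Batf2 is high in M1 alone, Klf4, Egr2 and Myc are highest in M2, Cebpa is low in M1, Maf is highest in M0, and the genotypes overlap in every panel.

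Spi1 encodes PU.1, the ETS factor on which the myeloid lineage depends. It lies at chr2:91082390-91115756 on the plus strand of mm10 and has 7 merged exons. Over the 15 mice, Spi1 ranged from 307.0 to 389.8 CPM in M0 with a median of 336.5, from 397.4 to 496.9 CPM in M1 with a median of 451.3, and from 359.4 to 494.5 CPM in M2 with a median of 383.5. Every M1 library was above every M0 library, whereas M2 overlapped with both. The log2 fold change was 0.38 (SE 0.044, adjusted p = 3.88e-10) in M1 against M0 and 0.23 (SE 0.044, adjusted p = 1.52e-05) in M2 against M0, and Spi1 was higher in 15 of 15 and 13 of 15 mice, respectively. These were the smallest called differences among the 7 factors. In M1 against M2 it was higher by 0.15 (SE 0.044, adjusted p = 0.00188), in 13 of 15 mice. By genotype, M0 levels were 341.4 ± 30.7 CPM (SD, n = 5) in Famin p.254I, 337.3 ± 14.7 CPM in Famin p.254V and 354.8 ± 27.7 CPM in Famin p.284R. In M1 they were 434.6 ± 33.3, 442.2 ± 16.0 and 465.8 ± 30.4 CPM in the same order, and in M2 408.2 ± 50.2, 381.7 ± 20.2 and 419.1 ± 53.2 CPM. The ranges of the 3 genotypes overlapped in each polarisation.

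Cebpa encodes C/EBPα, which myeloid progenitors need to enter the granulocyte and macrophage lineages. The gene has a single exon at chr7:35119293-35121928 on the plus strand. An antisense gene, Gm45091, overlaps it and held at most 0.965 CPM in any library. Cebpa ranged from 127.5 to 256.6 CPM in M0 with a median of 202.6, from 24.6 to 43.5 CPM in M1 with a median of 37.6, and from 174.4 to 251.3 CPM in M2 with a median of 213.3. The M1 libraries lay wholly below the other 30, and M0 and M2 overlapped. Cebpa fell by 2.49 on the log2 scale in M1 against M0 (SE 0.085, adjusted p = 8.37e-27), a 5.61-fold lower level, and was lower in 15 of 15 mice. In M2 against M0 the log2 fold change was 0.12 (SE 0.079, adjusted p = 0.16), with M2 above M0 in 7 of 15 mice. Genotype means in M0 were 183.6 ± 45.95 (SD, n = 5), 198.8 ± 32.3 and 202.4 ± 33.1 CPM in Famin p.254I, p.254V and p.284R. In M1 they were 37.7 ± 4.82, 37.3 ± 3.28 and 29.8 ± 6.80 CPM, and in M2 205.9 ± 17.8, 221.5 ± 17.2 and 208.8 ± 25.3 CPM. The 2 lowest M0 levels, 127.5 and 141.5 CPM, belonged to Famin p.254I mice 4 and 5.

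Cebpd, the gene of C/EBPδ, an acute-phase relative of C/EBPα, had next to no counted reads. Its single exon at chr16:15887286-15891031 held 0 to 9 reads per library in M0, 0 to 4 in M1 and 1 to 15 in M2. It was at 0 in 2 of 15 M0 libraries and 5 of 15 M1 libraries, where a count of 0 allows up to 3 reads. The sums over 15 libraries were 39, 16 and 80 reads. At this depth no difference between genotypes was detectable. With no filter on low counts, Cebpd was called higher in M2 than in M0 (log2 fold change 1.20, SE 0.373, adjusted p = 0.00542). The single exon overlaps Spidr on the opposite strand, which held 13.6 to 21.2 CPM, and the use of strand in counting is not given in the sources used here. Junb, another transcription factor gene, was at 0 in 10 of 15 M0, 11 of 15 M1 and 10 of 15 M2 libraries. Whether reads of such genes were lost in counting was not tested.

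Other genes of the C/EBP family were moved by M1 and not called in M2. Of 3 tested, 2 were higher and 1 lower in M1 against M0, with a median log2 fold change of 0.67 beside -0.03 over all genes tested, and 0 of 3 were called in M2 (edgeR). Across all genes tested, 77.3% were called in M1 and 76.4% in M2. Ddit3, which encodes the stress factor CHOP, rose by 1.23 (SE 0.106, adjusted p = 1.48e-13), and Cebpg fell by 0.68 (SE 0.074, adjusted p = 7.37e-11).

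Maf encodes c-MAF and lies at chr8:115682942-115707794 on the minus strand, overlapped by an antisense gene, Gm15655, that held at most 0.561 CPM. Maf was highest in M0, with 155.8 to 232.5 CPM and a median of 204.9. In M1 it ranged from 70.4 to 94.3 CPM with a median of 79.2, and in M2 from 26.1 to 60.4 CPM with a median of 33.6. No library of one polarisation overlapped with those of another. Maf fell by 1.29 in M1 (SE 0.078, adjusted p = 2.44e-18) and by 2.46 in M2 (SE 0.082, adjusted p = 1.5e-26) on the log2 scale, in 15 of 15 mice each time, so that M1 lay 1.17 above M2 (SE 0.079, adjusted p = 5.1e-17). Genotype means were 205.7 ± 23.0 (SD, n = 5), 197.8 ± 35.2 and 190.6 ± 16.9 CPM in M0 for Famin p.254I, p.254V and p.284R. They were 81.7 ± 7.59, 81.3 ± 7.05 and 80.0 ± 6.6 CPM in M1 and 38.2 ± 12.7, 36.8 ± 4.44 and 32.9 ± 5.53 CPM in M2. The highest M2 level, 60.4 CPM, was that of the Famin p.254I mouse 4 library with high Saa3, and the next highest was 41.7 CPM. Without the 3 libraries that stood apart, M2 levels ran from 26.1 to 41.7 CPM.

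Genes of the small MAF proteins, which lack the activation domain of c-MAF, moved in both directions. Of 3 tested, 2 were higher and 1 lower in M1, and 1 higher and 1 lower in M2. Mafk rose by 0.92 (SE 0.037) and Maff by 0.86 (SE 0.152) in M1, and in M2 Maff rose by 0.69 (SE 0.153) while Mafg fell by 0.30 (SE 0.076). Members of the lineage partners list, 12 factors that act beside these in macrophages, were mostly lower in M1 (10 of 12, 1 higher) and split in M2 (7 higher, 5 lower). All genes tested were 37.0% higher and 40.3% lower in M1, and 36.8% higher and 39.6% lower in M2. Bhlhe40, a repressor linked to macrophage proliferation and IL-10, fell by 2.48 in M1 (SE 0.229) and rose by 4.31 in M2 (SE 0.219). Its relative Bhlhe41 fell by 2.14 in M1 (SE 0.122), and Id3, an inhibitor of bHLH factors, fell by 2.54 in M2 (SE 0.257).

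Klf4, a zinc-finger factor of monocyte differentiation and of the IL-4 response, rose in both polarisations and most in M2. It lies at chr4:55527143-55532466 on the minus strand and has 5 merged exons. Its level ranged from 7.001 to 13.1 CPM in M0 with a median of 10.99, from 15.3 to 32.2 CPM in M1 with a median of 20.4, and from 61.2 to 142.8 CPM in M2 with a median of 97.2. The 3 polarisations did not overlap. The log2 fold change was 1.00 in M1 against M0 (SE 0.118, adjusted p = 6.47e-10) and 3.15 in M2 against M0 (SE 0.122, adjusted p = 4.13e-24), an 8.90-fold higher level, and both differences were seen in 15 of 15 mice. Genotype means in M0 were 9.75 ± 2.41 (SD, n = 5), 11.3 ± 1.49 and 11.4 ± 1.64 CPM in Famin p.254I, p.254V and p.284R. In M1 they were 19.2 ± 3.22, 20.2 ± 4.15 and 26.1 ± 7.32 CPM, and in M2 86.7 ± 24.5, 107.2 ± 26.8 and 95.5 ± 19.5 CPM.

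Egr2, a zinc-finger factor and marker of IL-4 macrophages, moved in opposite directions. It lies at chr10:67535475-67542188 on the plus strand and has 5 merged exons. Its level ranged from 14.1 to 71.2 CPM in M0 with a median of 52.8, from 3.07 to 23.7 CPM in M1 with a median of 4.596, and from 359.2 to 497.4 CPM in M2 with a median of 427.9. M2 was far above the other 30 libraries, and M0 and M1 overlapped only through 2 Famin p.254I libraries. Egr2 fell by 3.16 in M1 (SE 0.215, adjusted p = 1.2e-16) and rose by 3.06 in M2 (SE 0.201, adjusted p = 8.48e-17) on the log2 scale, in 15 of 15 mice each, so that M1 and M2 differed by 74.9-fold.

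The overlap came from the M0 library of Famin p.254I mouse 4, with 14.1 CPM, and the M1 library of Famin p.254I mouse 5, with 23.7 CPM. The 5 Famin p.254I mice gave 52.8, 67.2, 37.6, 14.1 and 70.1 CPM in M0 and 4.53, 4.36, 3.22, 3.50 and 23.7 CPM in M1. Without the 3 libraries that stood apart, M0 ran from 37.6 to 71.2 CPM and M1 from 3.07 to 7.78 CPM, with no overlap, and Egr2 fell by 3.56 in M1 on the log2 scale. The high M1 library is the one that held Arg1 and Retnla, and the part of whatever raised those genes in its Egr2 level was not tested. In Famin p.254V, Egr2 was 55.0 ± 11.4 CPM in M0 (SD, n = 5), 5.17 ± 1.41 CPM in M1 and 417.8 ± 35.5 CPM in M2. In Famin p.284R it was 53.1 ± 11.2, 5.08 ± 1.53 and 455.7 ± 44.7 CPM, and in Famin p.254I 48.4 ± 23.1, 7.86 ± 8.86 and 432.5 ± 38.3 CPM.

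The DNA just before the start sites of Klf4, Egr2 and Cebpa is shown because the first 2 rose most in M2 and the last fell in M1 and was not called in M2. Each run is the 250 bases upstream of a RefSeq start in GRCm38.p6, the mm10 assembly, written 5′ to 3′ on the gene's strand, with matches to any of the motifs searched in capitals. Klf4 is chr4:55532476-55532725 (minus strand), Egr2 chr10:67537619-67537868 (plus strand, the start among 5 in the table that coincides with the principal transcript) and Cebpa chr7:35119043-35119292 (plus strand). The table held no promoter for Spi1, Cebpd, Maf, Myc or Batf2.
Klf4: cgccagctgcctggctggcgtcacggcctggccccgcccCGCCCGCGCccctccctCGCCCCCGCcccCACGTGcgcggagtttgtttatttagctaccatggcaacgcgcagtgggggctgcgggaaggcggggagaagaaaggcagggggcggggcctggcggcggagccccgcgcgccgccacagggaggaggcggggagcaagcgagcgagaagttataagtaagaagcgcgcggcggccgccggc
Egr2: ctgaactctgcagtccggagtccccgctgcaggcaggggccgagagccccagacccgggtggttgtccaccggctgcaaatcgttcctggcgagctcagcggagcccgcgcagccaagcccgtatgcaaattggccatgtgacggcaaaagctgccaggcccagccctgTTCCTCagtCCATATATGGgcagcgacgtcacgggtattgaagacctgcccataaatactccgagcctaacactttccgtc
Cebpa: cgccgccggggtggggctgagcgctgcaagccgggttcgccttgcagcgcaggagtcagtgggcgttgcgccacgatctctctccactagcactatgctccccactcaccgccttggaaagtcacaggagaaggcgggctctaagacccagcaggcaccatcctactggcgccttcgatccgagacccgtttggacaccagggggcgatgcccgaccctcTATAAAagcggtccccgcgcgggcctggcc

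The motifs were searched on both strands of these windows and of all 32851 windows of the same length in the table. The E-box bound by MYC, CACGTG, matched in the Klf4 window at positions -182 to -177, counted back from the base before the start, and in 6.02% of all windows. The EGR motif GCGNGGGCG matched there at 2 places, -211 to -203 and -194 to -186, and in 4.70% of all windows. In the Egr2 window the ETS core of PU.1, GAGGAA, matched at -81 to -76 (23.3% of all windows). The CArG core of the serum response element was searched only as a fixed run of letters, the second run of capitals in that window. This exact run matched at -72 to -63 and was found in 23 of 32851 windows. Other spellings of the CArG core were not searched, so the count is not the share of windows with any CArG core. In the Cebpa window the TATA box TATAAA matched at -30 to -25 (12.4%). No match to the STAT6 motif (TTC and GAA 4 bases apart, 5.85%), the STAT motif TTCNNNGAA (7.02%), the interferon-stimulated response element core (GAAA repeated after 2 bases, 2.98%) or the C/EBP motif TTNNGNAA (36.8%) was found in these 3 windows. Another of the 5 Egr2 start windows held the C/EBP motif at 4 places and a further one held CACGTG. None of the matches printed overlap each other. A match describes these letters and is not evidence of binding.

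Relatives of KLF4 and EGR2 moved in both directions. Of 8 other KLF genes, 3 were higher and 4 lower in M1, and 2 higher and 4 lower in M2. The shares over all genes tested were 37.0% higher and 40.3% lower in M1, and 36.8% and 39.6% in M2. Klf9 fell by 1.88 in M1 (SE 0.124) and rose by 2.77 in M2 (SE 0.115, adjusted p = 3.81e-23), and Klf11 fell by 2.29 in M1 (SE 0.123) and by 1.26 in M2 (SE 0.117). Of the 4 other EGR genes and their NAB corepressors, 3 were higher in M1 and 2 higher and 1 lower in M2. Egr1, unlike Egr2, rose in both, by 2.11 in M1 (SE 0.216) and 1.96 in M2 (SE 0.215), with medians of 8.39, 41.2 and 28.6 CPM in M0, M1 and M2. Egr3 rose by 1.85 in M1 (SE 0.256), from a median of 0.487 to 1.78 CPM, and Nab1 fell by 0.72 in M2 (SE 0.051).

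**Figure D2:**
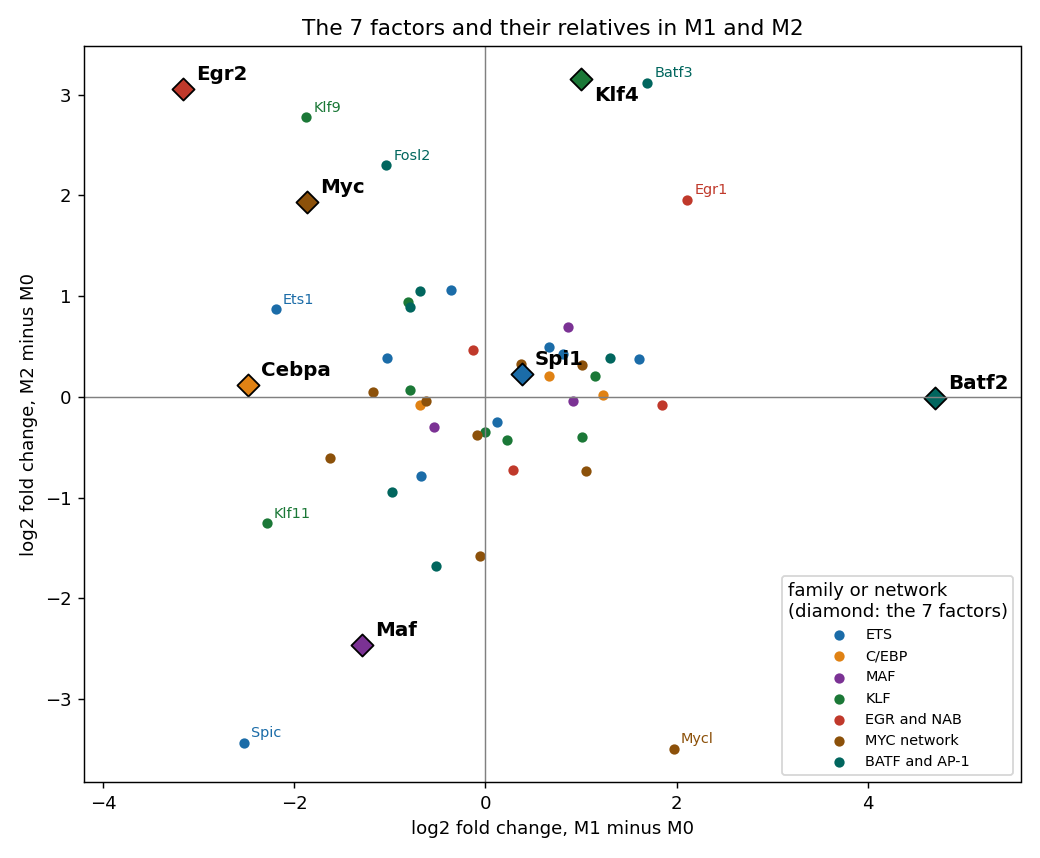
Fitted log2 fold change in M1 minus M0 (x axis) against M2 minus M0 (y axis), averaged over the 3 genotypes, for the 7 factors (diamonds) and their tested relatives (dots, coloured by family or network, those past 1.9 on either axis named). Egr2 and Myc lie upper left, lower in M1 and higher in M2, Batf2 lies far right on the axis, and Maf lies lower left beside Spic.

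Myc, the bHLH factor that drives growth and ribosome production, moved like Egr2 at a lower level. It lies at chr15:61985391-61990374 on the plus strand and has 4 merged exons. It ranged from 9.50 to 31.8 CPM in M0 with a median of 15.6, from 2.59 to 7.65 CPM in M1 with a median of 4.59, and from 58.8 to 74.6 CPM in M2 with a median of 68.1. The 3 polarisations did not overlap. Myc fell by 1.86 in M1 (SE 0.152, adjusted p = 3.63e-14) and rose by 1.93 in M2 (SE 0.141, adjusted p = 1.88e-15) on the log2 scale, in 15 of 15 mice each, and M1 and M2 differed by 13.9-fold. Genotype means in M0 were 16.8 ± 8.89 (SD, n = 5), 18.2 ± 7.56 and 18.0 ± 4.67 CPM in Famin p.254I, p.254V and p.284R. In M1 they were 5.11 ± 1.97, 4.78 ± 1.09 and 4.79 ± 0.888 CPM, and in M2 69.6 ± 2.08, 64.6 ± 5.24 and 68.5 ± 6.23 CPM. The spread was widest in M0, where the SD over 15 mice was 38.2% of the mean, against 26.6% in M1 and 7.40% in M2. The lowest M0 level, 9.50 CPM, was that of Famin p.254I mouse 4 and the highest, 31.8 CPM, that of mouse 5 of the same genotype.

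Listed targets of MYC, known genes of ribosome assembly, cell growth and metabolism, were higher in M2. Of 18 listed, 17 were measured and tested, and 17 of 17 were higher in M2 than in M0 against a background of 36.8% of genes higher, with a median log2 fold change of 0.73 beside -0.03 over all genes tested. In M1 they split, with 4 higher, 7 lower and 6 not called and a median of -0.03. The list was chosen with earlier results of these data known, so setting these counts beside the background is not an independent test. Nop16, a ribosome assembly factor, rose by 1.51 in M2 (SE 0.088, adjusted p = 1.05e-18) from a median of 15.3 to 38.4 CPM, with a log2 fold change of -0.06 in M1 (SE 0.088, adjusted p = 0.539). Dkc1, a pseudouridine synthase of ribosomal RNA, rose by 1.35 in M2 (SE 0.092) and by 0.59 in M1 (SE 0.092), and Fbl, the methyltransferase fibrillarin, by 0.65 in M1 (SE 0.0996). The counts of 17 in M2 and of 4 and 7 in M1 were the same without the 3 libraries that stood apart, without the 9 libraries of Famin p.284R mice 1 to 3, and with the mouse as a term.

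**Figure D3:**
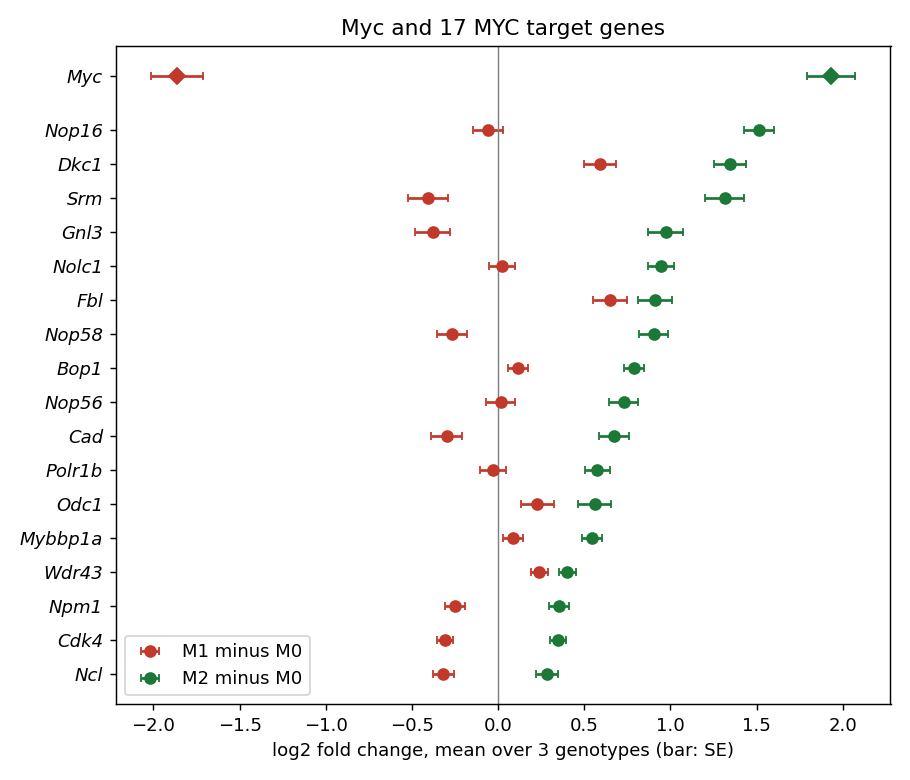
Fitted log2 fold change with SE (x axis) of Myc (diamonds) and 17 MYC target genes (rows) in M1 minus M0 (red) and M2 minus M0 (green), averaged over the 3 genotypes. All 17 targets lie right of 0 in M2, from Ncl at 0.28 to Nop16 at 1.51, and on both sides of 0 in M1.

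Proliferation genes were mostly lower in M2, where Myc was higher. Of 10, 8 were lower and 1 higher in M2, and 9 were lower in M1, with medians of -1.06 and -0.53. Among all genes tested, 39.6% were lower and 36.8% higher in M2, and 40.3% were lower and 37.0% higher in M1. Mki67 fell by 1.45 in M2 (SE 0.162) and 1.09 in M1 (SE 0.160), Birc5 fell by 1.43 in M2 (SE 0.184) and Ccnb1 by 0.70 in M1 (SE 0.172). The gene higher in M2, named after its value was seen, was Pcna, the sliding clamp of DNA replication, with 0.29 (SE 0.082). Partners and antagonists of MYC varied, with 4 of 9 higher and 3 lower in M1 and 2 higher and 5 lower in M2. Mycl, a MYC paralogue, ran opposite to Myc, rising by 1.97 in M1 (SE 0.234) and falling by 3.50 in M2 (SE 0.384) at medians of 0.747, 2.08 and 0.037 CPM in M0, M1 and M2. The antagonist Mxi1 fell by 1.63 in M1 (SE 0.060), and Mxd3 fell by 1.58 in M2 (SE 0.291).

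Batf2, a bZIP factor that partners IRF1 in interferon-treated macrophages, showed the largest difference of the 7 factors from M0. The annotated gene spans chr19:6140983-6172476 on the plus strand with 6 merged exons, 1 of which overlaps Arl2 on the opposite strand, and Arl2 itself held 15.6 to 28.1 CPM. Batf2 ranged from 5.58 to 12.5 CPM in M0 with a median of 6.99, from 142.9 to 240.4 CPM in M1 with a median of 204.9, and from 5.82 to 9.74 CPM in M2 with a median of 7.36. M1 stood wholly apart, and M0 and M2 overlapped. The log2 fold change was 4.71 in M1 against M0 (SE 0.096, adjusted p = 2.79e-34), a 26.1-fold higher level seen in 15 of 15 mice, and -0.01 in M2 against M0 (SE 0.092, adjusted p = 0.904), with an interval of 2 SE each way from -0.20 to 0.17. Genotype means in M1 were 184.0 ± 28.0 (SD, n = 5), 192.1 ± 24.5 and 210.2 ± 39.9 CPM in Famin p.254I, p.254V and p.284R. They were 8.06 ± 2.48, 7.14 ± 1.16 and 7.23 ± 1.19 CPM in M0 and 7.42 ± 1.45, 7.04 ± 0.390 and 7.70 ± 0.786 CPM in M2. The highest M0 level and the highest M2 level, 12.5 and 9.74 CPM, both came from Famin p.254I mouse 4, and without the libraries that stood apart M0 ended at 8.78 CPM and M2 at 8.59 CPM.

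In the BATF and AP-1 list, 2 of 7 tested genes were higher and 5 lower in M1, and 5 higher and 2 lower in M2. For all genes tested the shares were 37.0% higher and 40.3% lower in M1, and 36.8% and 39.6% in M2. Batf3, a factor of dendritic cell development, rose by 1.70 in M1 (SE 0.096) and by 3.12 in M2 (SE 0.098, adjusted p = 2.52e-27), from a median of 5.43 CPM in M0 to 16.4 in M1 and 46.5 in M2. Batf rose by 1.299 in M1 (SE 0.083), and Fosl2, an AP-1 subunit, by 2.30 in M2 (SE 0.067). Among 9 ETS relatives of PU.1, 4 were higher and 5 lower in M1, and 5 higher and 3 lower in M2. Spic, the PU.1 relative of red pulp and iron-recycling macrophages, fell by 2.53 in M1 (SE 0.180) and by 3.43 in M2 (SE 0.193), from a median of 8.94 CPM in M0 to 1.54 and 0.825. Ets1 fell by 2.19 in M1 (SE 0.148), and Etv3 rose by 1.06 in M2 (SE 0.063).

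Levels can be compared between genes only per length, here as CPM per kilobase of merged exons. That measure would understate a gene whose long exons are rarely used. Use of exons was not measured, and Maf has the most exonic bases of the 7 tested factors (8241). In M0 the order of the medians was Spi1 (124.9), Cebpa (76.9), Maf (24.9), Egr2 (15.5), Myc (5.74), Klf4 (3.61) and Batf2 (2.77), and from Maf downwards each overlapped with the next in its range over 15 libraries. In M1 the order was Spi1 (167.5), Batf2 (81.3), Cebpa (14.3), Maf (9.61), Klf4 (6.68), Myc (1.69) and Egr2 (1.35). There Cebpa overlapped with Maf, Maf with Klf4, and Myc with Egr2, while Spi1 and Batf2 stood clear of all below them. In M2 the order was Spi1 (142.3), Egr2 (125.9), Cebpa (80.9), Klf4 (31.9), Myc (25.1), Maf (4.08) and Batf2 (2.92), with overlap between Spi1 and Egr2, between Klf4 and Myc and between Maf and Batf2. By median, Spi1 therefore led the 7 tested factors in each state, though in M2 its range overlapped with that of Egr2. The second place by median went to Cebpa in M0, Batf2 in M1 and Egr2 in M2.

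The genes most like each factor were taken by Pearson's r of log2 CPM over the 45 libraries, which fall into 3 clusters by polarisation, so that r mostly reflects the 3 cluster levels. Batf2 was most like Tap2, a peptide transporter of antigen presentation (0.998), and Irf1 (0.995), and 849 genes had r over 0.9. Egr2 was most like the nucleotide receptor gene P2ry1 (0.988) and the integrin gene Itgb3 (0.988), Myc like Bcar3 (0.986) and Anxa2 (0.981), and Cebpa like Gprc5c (0.992) and Xylt1 (0.989), with 666, 592 and 602 genes over 0.9. Maf was most like Sash1 (0.983) and Ago4 (0.972), and Klf4 like Prkcd, a protein kinase C gene (0.969), and Cops7b (0.966), with 141 and 140 genes over 0.9. Spi1 had 3 such genes, led by Nrbp1 (0.919) and Spryd3 (0.911).

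No polarisation difference of a factor was called as differing between Famin alleles. In M1 against M0, Batf2 was higher by 4.52 (SE 0.165) in Famin p.254I, 4.76 (SE 0.166) in Famin p.254V and 4.85 (SE 0.167) in Famin p.284R, and Cebpa fell by 2.29 (SE 0.145), 2.41 (SE 0.146) and 2.76 (SE 0.149). Egr2 fell by 2.68 (SE 0.363), 3.41 (SE 0.374) and 3.41 (SE 0.379). Its Famin p.254I value includes the M0 library of mouse 4 and the M1 library of mouse 5, which stood apart. The part of these libraries in the gap was not tested. In M2 against M0, Klf4 was higher by 3.15 (SE 0.213), 3.25 (SE 0.212) and 3.06 (SE 0.210), Egr2 by 3.16 (SE 0.350), 2.92 (SE 0.346) and 3.10 (SE 0.349), and Myc by 2.05 (SE 0.245), 1.82 (SE 0.243) and 1.93 (SE 0.244). Of 42 interaction tests of a factor (genotype pair by M1 or M2 against M0), 0 were called by edgeR, DESeq2 or limma-voom, and 1 had an unadjusted p under 0.05 in edgeR, in a comparison where 2.76% of all genes did. Over all genes 0 were called in any of the 6 interactions, a background of 0%. The 1 was Cebpa, whose M1 minus M0 difference was lower in Famin p.284R, by 0.48 against Famin p.254I (SE 0.198, edgeR adjusted p = 1).

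**Figure D4:**
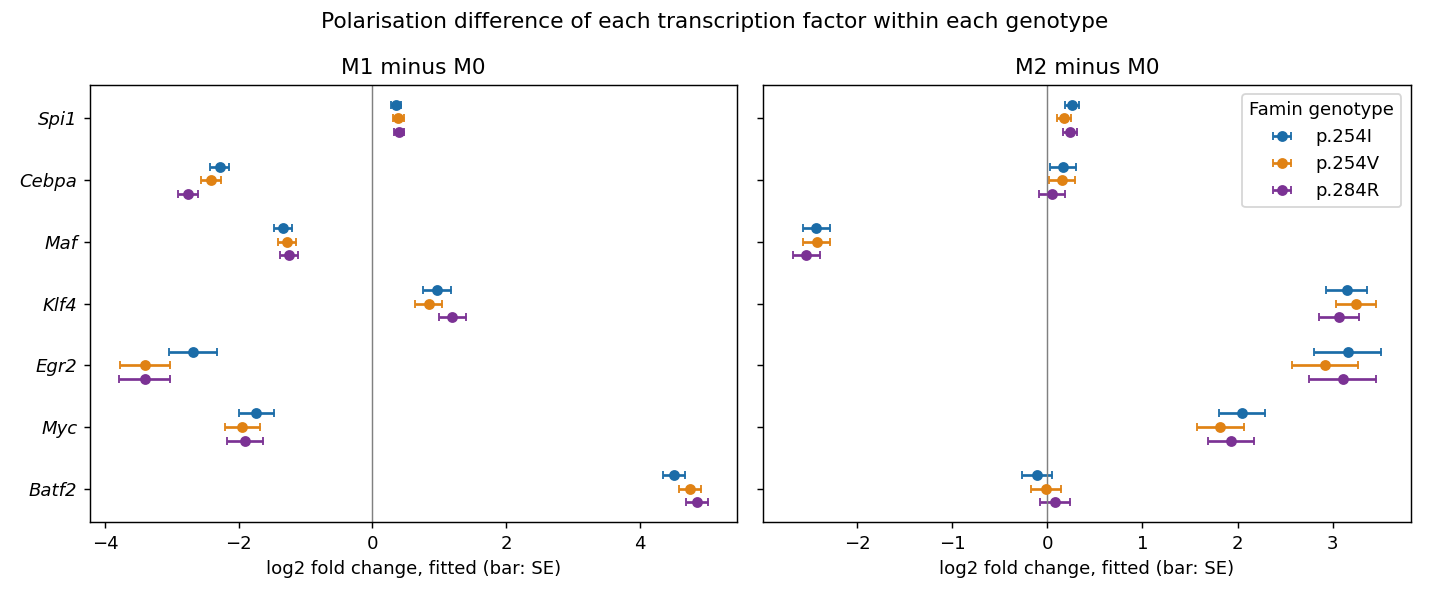
Fitted log2 fold change with SE (x axis) of the 7 factors (rows) in M1 minus M0 (left) and M2 minus M0 (right), within each Famin genotype (colours, 5 mice each). The 3 genotypes are most widely separated for Egr2 in M1, with Cebpa in M1 next, and lie closer together in the other rows.

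No factor was called between Famin genotypes. Averaged over M0, M1 and M2, 0 of 7 were called in Famin p.284R against p.254I (background 0.0155% of all genes), 0 of 7 in p.254V against p.254I (0.0155%) and 0 of 7 in p.284R against p.254V (0%), and DESeq2 and limma-voom likewise called 0. At an unadjusted p under 0.05 edgeR gave 1, 0 and 1 of 7, where 4.38%, 2.50% and 4.70% of all genes passed. These were Klf4 in Famin p.284R against p.254I, with 0.27 (SE 0.115, edgeR adjusted p = 1), and Spi1 in Famin p.284R against p.254V, with 0.09 (SE 0.044, edgeR adjusted p = 0.948). The fit has no term for the mouse and counts the libraries of a mouse as independent, so these SE may be too small. For Famin p.284R against p.254I, intervals of 2 SE each way ran from -0.02 to 0.15 for Spi1, -0.22 to 0.10 for Cebpa and -0.28 to 0.04 for Maf. They ran from 0.04 to 0.50 for Klf4, -0.53 to 0.27 for Egr2, -0.29 to 0.29 for Myc and -0.14 to 0.21 for Batf2. For Famin p.254V against p.254I the widest interval was again that of Egr2, from -0.53 to 0.26, and that of Klf4 ran from -0.03 to 0.43.

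**Figure D5:**
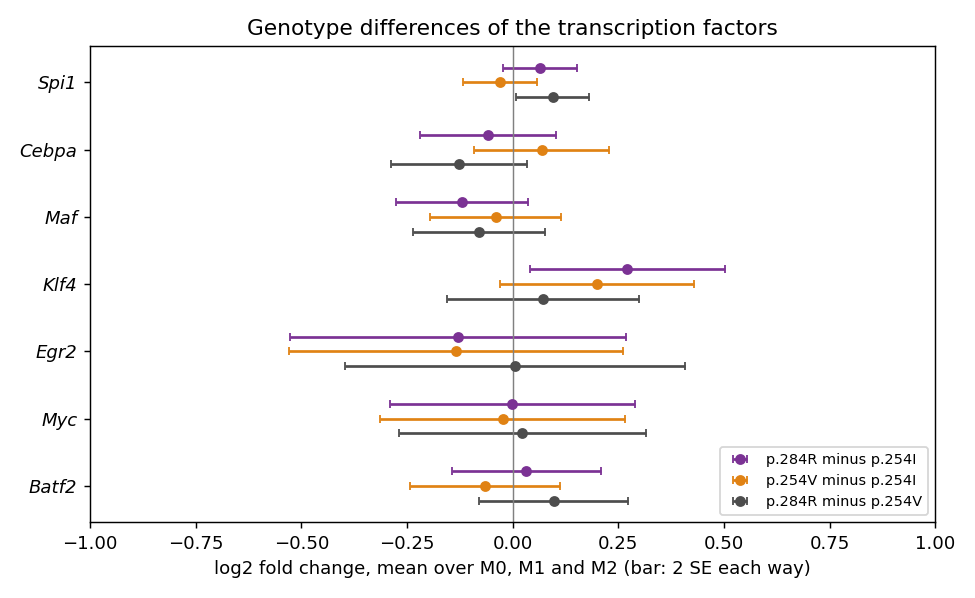
Difference between Famin genotypes in log2 fold change, averaged over M0, M1 and M2 (x axis), for the 7 factors (rows) and 3 genotype pairs (colours), with bars of 2 SE each way. The estimates lie between -0.13 and 0.27, and every bar crosses 0 but those of Klf4 in p.284R against p.254I and of Spi1 in p.284R against p.254V. The fit has no term for the mouse.

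Within single polarisations, 0 of 63 tests of a factor were called, and the 5 libraries of a genotype overlapped with those of each other genotype in 63 of 63 cases, where 0.296% of all genes and genotype pairs had no overlap. The background was 0.263% of all genes for Famin p.284R against p.254I in M1, 0.0775% for Famin p.284R against p.254V in M1, 0.00775% for Famin p.284R against p.254I in M2 and 0% in the other 6 comparisons. The first 2 shares moved with single mice. Leaving out 1 mouse at a time gave 0 to 109 genes in place of 34, and 0 to 65 in place of 10. Against Famin p.254I, 0 were called without Famin p.284R mouse 5, and 1 each without Famin p.284R mouse 3 and mouse 4. Against Famin p.254V, 0 were called without Famin p.284R mouse 3 or mouse 5, and also without Famin p.254V mouse 1. The highest counts came without Famin p.284R mouse 2. Unadjusted p was under 0.05 in 3 of 63, all in M1 macrophages of Famin p.284R mice, where 6.70% of all genes passed against Famin p.254I and 6.19% against Famin p.254V. The log2 difference of Cebpa there was -0.34 against Famin p.254I (SE 0.142, edgeR adjusted p = 0.628) and -0.32 against Famin p.254V (SE 0.142, edgeR adjusted p = 0.74), and that of Klf4 was 0.45 against Famin p.254I (SE 0.199, edgeR adjusted p = 0.657).

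The Famin p.284R M1 libraries were not uniform in these genes. Cebpa was at 36.8, 37.7, 25.1, 24.8 and 24.6 CPM in mice 1 to 5, against 38.6, 43.5, 30.5, 36.2 and 39.7 CPM in Famin p.254I and 38.2, 40.6, 37.6, 31.8 and 38.3 CPM in Famin p.254V. Mice 3, 4 and 5 were thus below every other M1 library, and mice 1 and 2 were within the range of the others. Compared with the libraries of the same number, Cebpa was lower in Famin p.284R in 5 of 5 numbers against either other genotype. In Famin p.254V against p.254I it was lower in 4 of 5 numbers. The share of all genes lower in 5 of 5 numbers was not counted. With the number as a replicate block, the log2 difference of Cebpa in Famin p.284R was -0.35 against p.254I (SE 0.131, edgeR adjusted p = 0.292). Against Famin p.254V it was -0.33 (SE 0.130, edgeR adjusted p = 0.361). Klf4 was at 21.8, 15.3, 32.2, 31.3 and 30.0 CPM in the same 5 libraries and at most 27.1 CPM in any M1 library of the other genotypes, so that mice 3, 4 and 5 were again apart, this time as the highest. By number, Klf4 was higher in Famin p.284R in 3 of 5 against either other genotype. The split differs from that of Lacc1, which was at 395.9, 262.8, 218.2, 584.0 and 553.2 CPM in these libraries. Without the 9 libraries of Famin p.284R mice 1 to 3, Cebpa alone was called in this comparison, with a log2 difference of -0.61 (SE 0.170, adjusted p = 0.0498), an estimate that then rests on 2 Famin p.284R mice, and 2.37% of all genes were called in that fit.

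Marker lists beside these factors behaved as follows. Of the 8 tested M1 markers, Cxcl9 rose from a median of 0.397 CPM in M0 to 3262 CPM in M1 (log2 fold change 12.48, SE 0.314), Nos2 stood at a median of 0 CPM in M0 and 19.7 CPM in M1, and Cxcl10 fell by 5.46 in M2 (SE 0.354). Of the M2 markers, the medians of Retnla and Arg1 in M0 and M2 were 0.099 and 3279 CPM and 0.276 and 1030 CPM. In M1 the M2 marker Pdcd1lg2 rose by 4.21 (SE 0.191) and Mrc1 fell by 2.32 (SE 0.130), and the list gave 2 higher and 4 lower, or 2 and 6 without the 3 libraries that stood apart. Of 10 macrophage markers, 6 were lower and 3 higher in M1, and 9 were lower and 1 higher in M2. Beside these counts, 40.3% of all genes tested were lower and 37.0% higher in M1, and 39.6% and 36.8% in M2. Cd14 fell by 2.55 in M1 (SE 0.125) and by 3.12 in M2 (SE 0.128), Aif1 rose by 2.51 in M1 (SE 0.115), and Fcgr1 fell by 2.93 in M2 (SE 0.165).

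Markers of other cells were low, with exceptions. The 8 neutrophil and progenitor markers summed to 30.2 to 330.2 CPM in M0, 46.8 to 152.5 CPM in M1 and 17.8 to 82.3 CPM in M2, and 7 of 8 lymphoid markers stayed under 1 CPM in every library. The eighth, Cd4, fell by 1.70 in M1 (SE 0.128) and 2.69 in M2 (SE 0.135). Of 7 neutrophil and progenitor markers tested, 4 were lower in M1 and 5 in M2, where 40.3% and 39.6% of all genes tested were lower. The M1 count was 3 without the 3 libraries that stood apart, 0 without the 9 libraries of Famin p.284R mice 1 to 3 and 6 with the mouse as a term. The log2 fold changes were -1.25 for Camp (SE 0.325) and -1.10 for Elane (SE 0.475) in M1, and -2.40 for Camp (SE 0.355) and -1.95 for Ngp (SE 0.334) in M2. Elane was near the floor, with medians of 0.226 CPM in M0 and 0.069 CPM in M1. Of the 6 dendritic cell markers, Flt3 and Cd209a were not tested. Of the 4 tested, 2 were higher and 1 lower in M1, and likewise 2 and 1 in M2. Clec9a rose from a median of 0.407 CPM in M0 to 294.1 CPM in M1 (log2 fold change 9.42, SE 0.164). Xcr1 rose from a median of 0.028 CPM in M0, with 7 of 15 libraries at 0, to 8.17 CPM in M1. The median of Zbtb46 was lower in M1, at 0.316 CPM against 0.578 CPM in M0. In M2, Zbtb46 rose by 3.69 (SE 0.192) and Siglech fell by 0.89 (SE 0.315). The 4 tested mast, erythroid and stromal markers were all lower in M1, led by Gata2 at -3.76 (SE 0.381) and Pdgfrb at -2.63 (SE 0.248). Both were near the floor. The medians in M0 and M1 were 0.553 and 0.032 CPM for Gata2, with 7 of 15 M1 libraries at 0, and 1.29 and 0.213 CPM for Pdgfrb. In M2, 3 were lower, among them Col1a1 at -1.33 (SE 0.222), and Gata2 was higher by 1.54 (SE 0.224). The part of other cells in the levels of the factors was not tested.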

How the data were processed

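RNA was measured in 45 libraries, 1 for each of 15 mice and 3 polarisations, and groups were taken from the sample titles. The same number in a title was read as the same mouse across M0, M1 and M2. The deposited table of read counts per gene, made by the authors, was the input of every test. The table of CPM deposited by the authors held 11900 genes, and the whole reads recovered from it (100% of values within 0.01) equalled the counts. Per the labels, the authors used FastQC, Trim Galore, HISAT2 and mm10, whereas the series text names Cutadapt and STAR. The counting tool, annotation and use of strand are not given in the sources used here. FASTQ reads were not analysed here.

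Genes with low counts were removed with filterByExpr over 9 groups, leaving 12905. Counts were TMM-normalised and tested with the edgeR (4.0.16) quasi-likelihood test in R 4.3.3, with all 9 groups in one fit, Benjamini-Hochberg adjustment over all genes tested and a threshold of 0.05. CPM in the text were computed from the counts after TMM scaling. DESeq2 1.42.0, limma-voom (limma 3.58.1), other filters and size factors, replicate blocks and omission of each mouse were alternatives. The scripts were tested on simulated data. Between 16.4 and 48.2 reads made 1 TMM-scaled CPM, which limits precision for Cebpd and other genes near 0. Gene positions are from GENCODE vM21 on mm10, with 29081 count identifiers matched.

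The members and gene lists were chosen with earlier results of these data known. Beside the members, the text names up to 2 genes of each list with the largest called change in M1 and in M2, and the 2 genes most correlated with each member. Libraries of one mouse share an animal. Deviations from the group means correlated above 0.1 between same-numbered libraries of 2 polarisations in 12, 15 and 11 of 15 mice, and between same-numbered libraries of 2 genotypes in 15, 15 and 13 of 15 pairs in M0, M1 and M2. Every pair of same-numbered libraries of 2 genotypes was thus above 0.1 in M0 and M1 but not in M2, where the lowest was -0.223. The labels do not say what a number shares between genotypes, so the main fit has no block, and the fit with the number as a replicate block is given beside the M1 genotype values.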

Additional observations from a re-analysis of the deposited data

Results flagged for a closer look

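A library stood far from the other 4 of its group, by Dixon's test at the 95% level, in 5 of 63 groups of a factor, genotype and polarisation, and chance gives about 1 in 20 groups. Cebpa was at 251.3 CPM in the M2 library of Famin p.254V mouse 3, where the next highest was 218.6 CPM. Maf was at 60.4 CPM in the M2 library of Famin p.254I mouse 4, where the next highest was 35.8 CPM. Egr2 was at 23.7 CPM in the M1 library of Famin p.254I mouse 5, against 4.53 CPM in the next, and at 7.78 CPM in the M1 library of Famin p.284R mouse 5, against 4.75 CPM. Batf2 was at 12.5 CPM in the M0 library of Famin p.254I mouse 4, against 7.26 CPM. The libraries with high Maf, Batf2 and, in Famin p.254I, Egr2 are the 3 that also stood apart in marker genes.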

How the results depend on the processing

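Counts of called factors stayed the same or within 1.5 times under the alternatives run, with 1 exception: without the 9 libraries of Famin p.284R mice 1 to 3, 1 factor (Cebpa) was called between genotypes within a single polarisation, in place of 0, in a fit that called 313 of 13185 genes in that comparison (34 of 12905 with all libraries). The replicate blocks (replicate number as a term, mouse as a random or a fixed term) left 7, 5 and 7 factors called and 0 between genotypes where they could be fitted, while the number block called 64 and 36 genes in place of 34 and 10 for Famin p.284R in M1 against p.254I and p.254V. The other settings with all mice gave 1 to 64 and 0 to 21 genes there. With no filter on low counts, Cebpd raised the counts to 7, 6 and 8 of 8. Near-zero differences changed sign. For Batf2 in M2 against M0 the log2 fold change was 0.0085 in limma-voom, 0.0042 with a random replicate block for the mouse, 0.024 without the 3 libraries that stood apart and 0.059 without those 9 libraries. In the same order of settings, Famin p.284R against p.254I gave 0.090, 0.094, 0.0995 and 0.0095 for Egr2 and 0.053, 0.047, 0.0070 and 0.14 for Myc, with 0.012 for Myc under the replicate number block. Famin p.254V against p.254I gave 0.095, 0.10 and 0.0998 for Egr2 with limma-voom, the random block and without the 3 libraries, 0.019 and 0.021 for Myc with the first 2, and 0.031 for Maf and 0.034 for Batf2 without the 3 libraries. Famin p.284R against p.254V gave -0.0048, -0.0097, -0.00060 and -0.00031 for Egr2 with limma-voom, the random block, only the libraries compared and without the 3 libraries. None of these had an adjusted p under 0.05, and the cause was not tested. Leaving out 1 mouse gave -0.038 to 0.025 for Batf2 in M2 against M0. It gave -0.28 to 0.24 for Egr2, -0.066 to 0.18 for Myc and -0.014 to 0.16 for Batf2 in Famin p.284R against p.254I. It gave -0.082 to 0.055 for Maf, -0.28 to 0.24 for Egr2, -0.12 to 0.16 for Myc and -0.11 to 0.063 for Batf2 in p.254V against p.254I, and -0.082 to 0.047 for Egr2 and -0.045 to 0.12 for Myc in p.284R against p.254V.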

Other observations

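In M0, the number 5 libraries of the 3 genotypes held the highest mean of Egr2, 68.1 to 71.2 CPM, and of Myc, 23.3 to 31.8 CPM. The range within a number varied, and was widest in number 4 for both genes. Egr2 was at 37.6 to 42.8 CPM in those numbered 3, and the libraries numbered 4 ran from 14.1 to 60.1 CPM for Egr2 and from 9.50 to 27.3 CPM for Myc. Myc means were 14.6, 13.7 and 13.6 CPM in numbers 1, 2 and 3. The labels do not say what a shared number stands for between genotypes.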
